A study of Mus musculus with 447 samples.

Results

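Cells of the fetal mouse pancreas that carried both glucagon (Gcg) and pancreatic polypeptide (Ppy) transcripts at a high level were described here. The members were chosen by their measured Gcg and Ppy values, each of which had to reach 1000 CPM (reads of a gene scaled to a common total per cell, spike-in sequences left out). The rule was met by 81 cells, 31 of 212 Neurod1OE and 50 of 235 Ngn3KO cells, the genotypes explained below. They were compared with the 267 cells that passed the Gcg limit and stayed under the Ppy limit, called Gcg-only cells, so 348 cells were Gcg-high in all.

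The cells were GFP-positive cells of E15.5 pancreas, sorted singly into plates and sequenced by Smart-seq3, a full-length single-cell RNA method. The labels give 2 genotypes. Pdx1CreNeurod1OE cells (Neurod1OE) overexpressed the endocrine transcription factor Neurod1, and Pdx1CreNgn3KONeurod1OE cells (Ngn3KO) carried the same overexpression together with loss of Ngn3 (Neurog3), so Neurod1 overexpression was shared by all groups. The Pdx1-driven Cre recombines the alleles in the pancreatic epithelium, the design text names its inducible CreER form, and cells without the Neurod1 transgene were not analysed here. Titles carry a set number of 2 or 3, whose meaning is not given. Set 2 held 26 Neurod1OE members beside 87 Gcg-only cells and 50 Ngn3KO members, all those of this genotype. Set 3 held 5 members and 27 Gcg-only cells among 95 Neurod1OE cells. It held 0 members among 30 Ngn3KO cells, of which 1 was Gcg-high. Comparisons of members with Gcg-only cells therefore used 3 groups. The labels name no animal, so a group counts as 1 sample, cells are not replicates, no p-value is given, and the printed intervals cover counting error only.

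Glucagon is the hormone of islet alpha cells and raises blood glucose. Pancreatic polypeptide is the hormone of PP cells (gamma cells), a small islet population, and belongs with peptide YY (Pyy) and neuropeptide Y (Npy) to 1 peptide family that acts through G-protein-coupled Y receptors. Pyy is made early and broadly in the fetal islet, and islet amyloid polypeptide (Iapp) is a peptide co-secreted with insulin and also found in other fetal endocrine cells.

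Depth differed less between the classes in set 2 than in set 3. The median total per cell was 575044 reads in members and 550360 in Gcg-only Neurod1OE cells, 297602 and 357884 in Ngn3KO cells, and 1038262 and 682756 in set 3. With cells thinned to 165298 reads, the median number of detected genes was 7154.5 and 7229.5, 6791 and 7118, and 7893.5 and 7823 in the same order. Shallower cells were left out of these medians, 0 members and 1 Gcg-only cell of Neurod1OE, 9 and 22 of Ngn3KO, and 1 and 4 of set 3. The targeted gene Neurog3, the endocrine progenitor factor, was too low in either genotype to check the deletion, at 4.52 CPM in Neurod1OE members and 2.60 CPM in Ngn3KO members of set 2. Expression of the predicted gene Gm12338 divided set 2 into cells at or above 10 CPM and cells below it. This split was taken from earlier results of these data. It ran with sex in Neurod1OE, where the 11 positive members carried male and the 15 negative members female transcripts. All sexed Ngn3KO members were female in both blocks. In Ngn3KO the blocks entered the classes unequally, with 41 of 50 members positive but 65 positive beside 87 negative Gcg-only cells, so a pooled Ngn3KO ratio also carries the difference between blocks. Block values below are given in the order Neurod1OE positive, Neurod1OE negative, Ngn3KO positive, Ngn3KO negative.

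Both hormones spanned a wide range among the members, and these values only describe the rule. Ppy in Neurod1OE members of set 2 ran from 1135 CPM over a median of 2548 to 41684 CPM. In Ngn3KO members it ran from 1004 over 2996 to 39420 CPM. The 5 members of set 3 had 2235, 4413, 11283, 16728 and 38997 CPM. Ppy was continuous across the limit, since the 3 members just inside it had 1004, 1014 and 1019 CPM and the 3 Gcg-only cells just outside it 985, 973 and 968 CPM. Gcg-only cells were rarely empty of Ppy, with medians of 178.7, 182.2 and 75.3 CPM in Neurod1OE set 2, Ngn3KO set 2 and Neurod1OE set 3. As a measure of background, 17 of the 29 Ngn3KO cells of set 3 below the Gcg limit had a Ppy read, with a median of 2.83 CPM over all 29, a highest value of 367 CPM and a median total of 711280 reads. Among 15 set 3 Neurod1OE cells below the Gcg limit with at least 1000 CPM of the acinar gene Cpa1, the Ppy median was 4.85 CPM and the highest value 90586 CPM, at a median total of 1375500 reads.

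**Figure D1:**
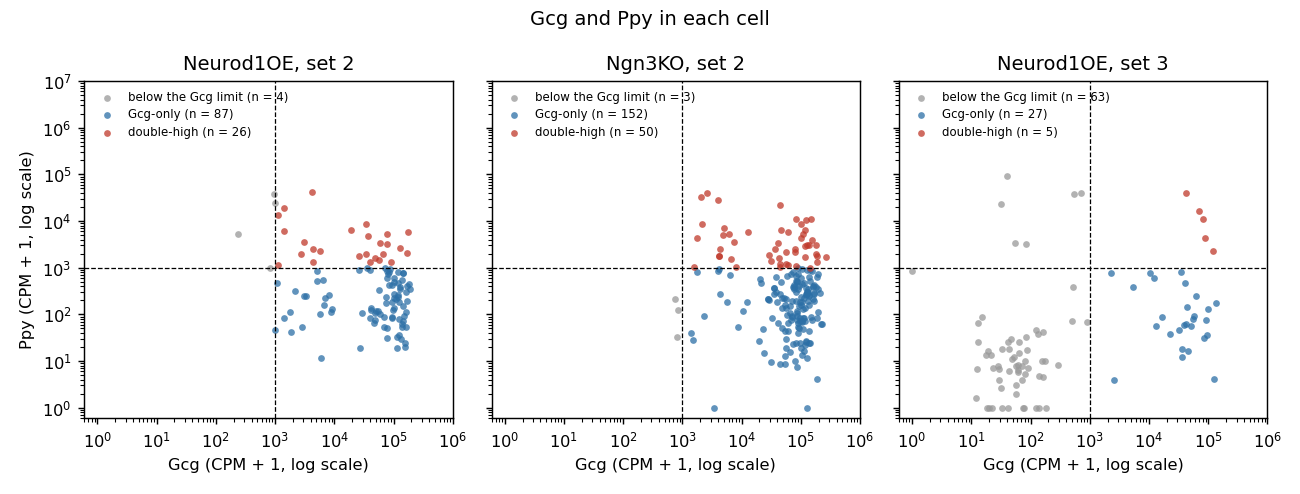
Each point is 1 cell, with Gcg on the x axis and Ppy on the y axis (both CPM, log axes, 1 CPM added) in each genotype and set. The dashed lines mark the 1000 CPM limits, and the 81 members at the upper right run on from the Gcg-only cells below them without a gap.

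The share of Gcg-high cells that also passed the Ppy limit was 23.01% (26 cells, exact Clopper-Pearson 95% interval 15.6 to 31.9) in Neurod1OE and 24.8% (50 cells, 18.96 to 31.3) in Ngn3KO of set 2, with intervals that overlap widely. In set 3 it was 15.6% (5 of 32, 5.28 to 32.8) in Neurod1OE. In Ngn3KO the share was 38.7% (41 members beside 65 Gcg-only cells, 29.4 to 48.6) in Gm12338-positive and 9.38% (9 of 96, 4.38 to 17.1) in Gm12338-negative cells, with intervals that do not overlap. In Neurod1OE it was 23.4% (11 of 47, 12.3 to 38.03) and 22.7% (15 of 66, 13.3 to 34.7). Ngn3KO lay above Neurod1OE in the positive and below it in the negative cells, and what the blocks stand for was not tested. As cells are not replicates, whether these intervals overlap is no test.

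The members were also counted by Gcg level, in a split at 10000 CPM made after the data were seen. As Gcg is part of the rule, these shares are a description. Among cells with Gcg from 1000 to 10000 CPM, 10 of 29 in Neurod1OE (34.5%, 17.9 to 54.3) and 15 of 26 in Ngn3KO (57.7%, 36.9 to 76.6) were members. At 10000 CPM and above, 16 of 84 Neurod1OE (19.05%, 11.3 to 29.1) and 35 Ngn3KO cells (19.9%, 14.3 to 26.6) were. The intervals overlap in Neurod1OE and not in Ngn3KO, which is no test, as they count cells that are not replicates. Within the Gm12338-positive Ngn3KO cells they overlap, at 63.6% (14 of 22, 40.7 to 82.8) and 32.1% (27 of 84, 22.4 to 43.2). In set 3, 0 of 3 and 5 of 29 (17.2%, 5.85 to 35.8) were members.

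**Figure D2:**
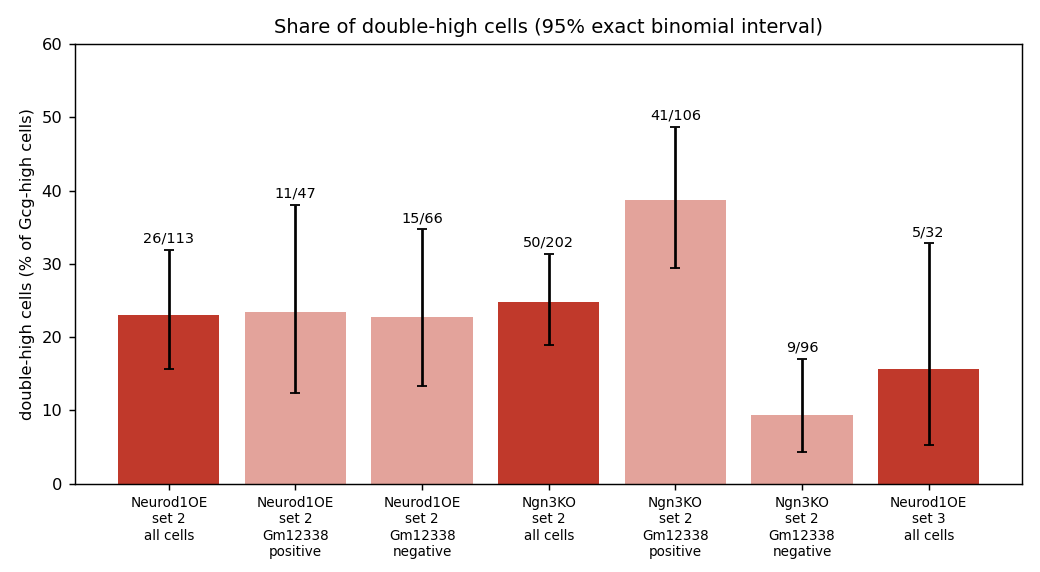
Share of Gcg-high cells that were also Ppy-high (bars, y axis in percent) for both genotypes in set 2, Neurod1OE in set 3 and for the Gm12338 blocks of set 2, with exact 95% intervals over cells as error lines. Within a genotype, the Ngn3KO blocks, at 38.7% and 9.38%, have intervals that do not overlap, which is no test, as cells are not replicates.

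Pyy, a relative of Ppy in the same peptide family that the rule did not use, was higher in the members in all 3 groups, and few other genes were. A gene was measured when it reached 10 CPM and was read in 10% of cells on either side in every group, and was called when summed counts differed at least 2-fold in the same direction in all 3 groups. The 9086 measured genes gave 6 higher calls (0.066% of them) and 11 lower calls (0.121%). Log2 ratios are of summed CPM with 1 CPM added, members over Gcg-only cells. They had a median over all measured genes of 0.00 in Neurod1OE set 2, -0.01 in Ngn3KO set 2 and -0.08 in set 3. The higher genes were Ppy itself, Pyy, the receptor tyrosine phosphatase Ptpru, the RNA-binding protein gene Mex3b, the mitochondrial complex III assembly factor Lyrm7 and the predicted gene Gm11131. Lyrm7 and Mex3b rested on single cells in set 3, where their log2 ratios became -2.76 and -2.18 without the highest cell of each class. The Gm11131 ratio was -0.98 in Gm12338-positive Neurod1OE cells. In single groups such calls were more frequent, at 3.59% higher and 3.08% lower in Neurod1OE set 2, 2.11% and 2.66% in Ngn3KO set 2, and 11.3% and 18.5% in set 3 with its 5 members.

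Pyy was above 1000 CPM in all 81 members and in 249 of 267 Gcg-only cells (93.3%). In Neurod1OE of set 2 its lowest, median and highest values were 4316, 12235 and 84285 CPM in members and 68.9, 5301 and 96455 CPM in Gcg-only cells. In Ngn3KO they were 3263, 23909 and 161927 CPM against 192.6, 4814 and 90657 CPM. The ranges overlap, but no member lay below 3263 CPM, whereas Gcg-only cells reached down to 68.9 CPM. In set 3 the members held 13124, 26572, 27567, 30324 and 49526 CPM against a Gcg-only median of 3925 CPM. In the summed counts Pyy stood at 25177 CPM (Poisson 95% interval 25105 to 25251) in members and 10757 CPM (10729 to 10784) in Gcg-only cells of Neurod1OE, a log2 ratio of 1.23. The log2 ratio was 1.91 in Ngn3KO (28368 against 7545 CPM) and 1.55 in set 3 (23648 against 8093 CPM). It was above 1 in each block too, at 1.18 and 1.28 in Gm12338-positive and negative Neurod1OE cells and 1.67 and 1.48 in the Ngn3KO blocks. With the Ppy limit at 500 CPM in place of 1000 the Pyy ratio in Neurod1OE of set 2 was 0.81, below the 2-fold call.

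**Figure D3:**
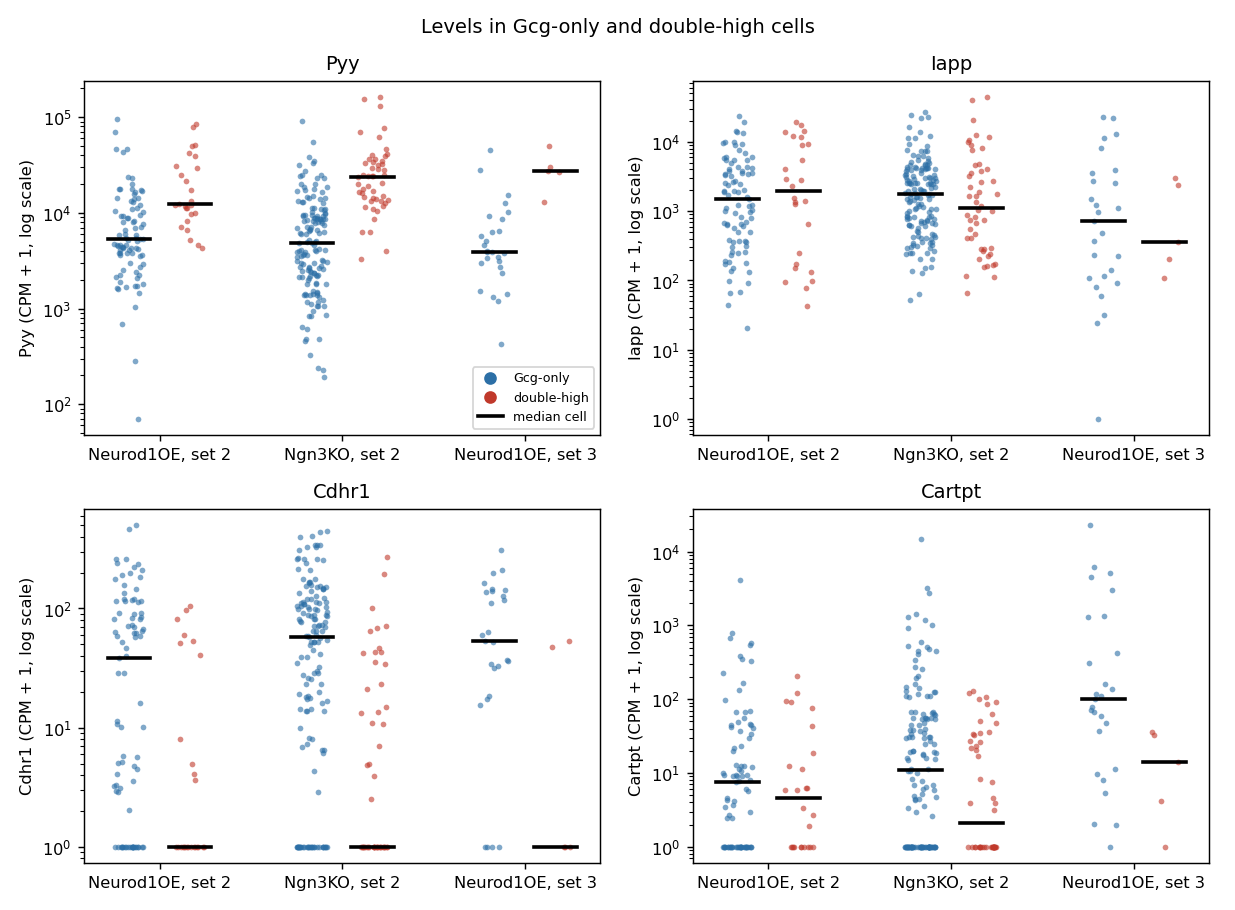
CPM per cell (y axis, log axis, 1 CPM added) of Pyy, Iapp, Cdhr1 and Cartpt in members and Gcg-only cells of each group. Points are cells and bars are medians, and the Pyy median of the members, 12235, 23909 and 27567 CPM, lies above that of Gcg-only cells, 5301, 4814 and 3925 CPM, in each group.

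Pyy was higher in cells with more Ppy across the range of Gcg-high cells. Over cells of 1 group, which differ in depth and share a library set, Spearman's rank correlation between Ppy and Pyy was 0.51 in the 26 members and 87 Gcg-only cells of Neurod1OE, 0.65 in the Gcg-high Ngn3KO cells of set 2 (50 members) and 0.53 in 32 set 3 cells. In the blocks it was 0.56 and 0.66 in Neurod1OE and 0.68 and 0.50 in Ngn3KO. Among 6895 genes, Pyy was the single gene beside Ppy with a rank correlation of at least 0.3 in all 3 groups. The rank correlation of Ppy with the cell total was -0.02, -0.09 and -0.02. Within the members alone, that of Ppy and Pyy was 0.59 in 26 Neurod1OE and 0.48 in 50 Ngn3KO cells, and -0.23 in the 9 Gm12338-negative Ngn3KO members.

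Ordered by Ppy, the 348 Gcg-high cells fell into 8 tiers. The median Pyy was 1406 CPM in the 11 cells of the lowest tier and 3482, 6482 and 8800 CPM in the next 3 tiers, all of Gcg-only cells. In the tiers of members it was 13323, 19301, 15672 and 42319 CPM. Median Gcg over the same tiers, 76153, 83990, 87478, 78013, 44675, 78996, 40557 and 42304 CPM, had no such order within the Gcg-only cells. The tiers pool genotypes, sets and blocks, with Gm12338-positive set 2 cells as 0 of 11 in the lowest and 9 of 13 in the highest tier. Summed Pyy of Gcg-only cells was higher in the positive block, at 16774 against 5052 CPM in Neurod1OE and 9976 against 5267 CPM in Ngn3KO. The tier medians thus also carry the mix of blocks. Median Pyy was also higher in members within 2 wide bins of Gcg, inside which Gcg still differed between the classes. Among cells with Gcg from 1000 to 10000 CPM, median Pyy was 34244 CPM in members and 5301 CPM in Gcg-only cells of Neurod1OE, and 36142 and 6172 CPM in Ngn3KO. At 10000 CPM of Gcg and above it was 11502 and 5287 CPM, and 19301 and 4812 CPM. Median Gcg was 2946 and 5059 CPM in members and Gcg-only cells of the lower Neurod1OE bin, 58655 and 100200 CPM in the upper, and 4205 and 3944 CPM, and 84273 and 90762 CPM, in Ngn3KO.

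**Figure D4:**
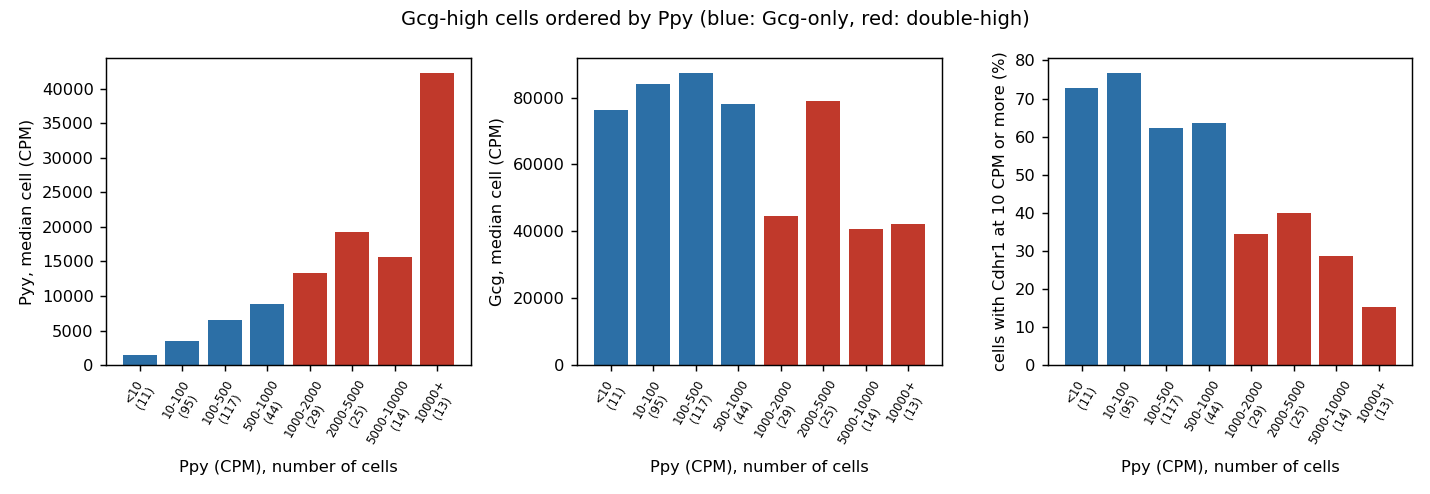
Gcg-high cells of all groups in 8 tiers of Ppy (x axis, CPM), as bars of the median Pyy and Gcg level (y axis, CPM) and of the percent of cells with at least 10 CPM of Cdhr1. Median Pyy goes from 1406 CPM in the lowest to 42319 CPM in the highest tier, while the share of cells with Cdhr1 goes from 72.7% to 15.4%. The tiers differ in their mix of groups and Gm12338 blocks.

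Ppy and Pyy are neighbours on mouse chromosome 11 (mm10), both on the minus strand, at 102099930 to 102101319 and 102106676 to 102107832, with 5356 bases and 0 other annotated genes between them. The nearest other measured genes, named after their values were seen, were not called. Mpp2, a membrane scaffold gene 11414 bases away, had log2 ratios of -0.17, 0.17 and 1.22, and Tmem101 of -0.29, -0.01 and -1.62. The 250 bases before the RefSeq start of Ppy, Pyy and Gcg (GRCm38.p6, the sequence of mm10; chr11:102101320-102101569, chr11:102107833-102108082 and chr2:62483654-62483903, minus strand, written 5′ to 3′) are shown to set the promoters of the co-varying pair beside that of Gcg. Capitals mark matches on either strand to CAGATG (an E-box letter string of the kind Neurod1 binds), TAAT (the homeodomain core), TGCTGA (a half-site of basic leucine zipper factors) and TATAA (the TATA box core).
Ppy: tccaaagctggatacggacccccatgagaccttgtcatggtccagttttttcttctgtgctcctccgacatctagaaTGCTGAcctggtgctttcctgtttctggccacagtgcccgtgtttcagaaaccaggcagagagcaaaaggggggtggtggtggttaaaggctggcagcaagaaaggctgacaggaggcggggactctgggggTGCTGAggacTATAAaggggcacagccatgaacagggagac
Pyy: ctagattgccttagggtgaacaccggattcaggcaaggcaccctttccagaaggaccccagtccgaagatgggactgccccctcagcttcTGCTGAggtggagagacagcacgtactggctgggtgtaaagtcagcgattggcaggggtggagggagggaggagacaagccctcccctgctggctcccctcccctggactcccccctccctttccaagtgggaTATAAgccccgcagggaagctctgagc
Gcg: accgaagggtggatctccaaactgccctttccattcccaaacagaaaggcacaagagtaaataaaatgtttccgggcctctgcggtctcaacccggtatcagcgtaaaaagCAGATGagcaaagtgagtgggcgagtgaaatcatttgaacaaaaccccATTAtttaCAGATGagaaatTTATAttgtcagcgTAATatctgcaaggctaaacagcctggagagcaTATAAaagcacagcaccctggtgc
The Ppy window held TGCTGA 2 times, the nearer from 41 bases before the start, and TATAA from base 31. The Pyy window held TGCTGA from base 160 before the start and TATAA from base 27. Neither held CAGATG or TAAT, whereas the Gcg window held each of those 2 times, TATAA 2 times and TGCTGA 0 times. Of 32851 mouse windows of this length, 14.4% held CAGATG, 54.9% TAAT, 16.1% TGCTGA and 22.8% TATAA, so these matches describe letters, and binding was not measured here.

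Gcg itself, used by the rule, was high in most members. Its lowest, median and highest values were 1117, 34301 and 177917 CPM in Neurod1OE and 1556, 50933 and 262022 CPM in Ngn3KO of set 2. The 5 members of set 3 had 42304, 68677, 80304, 88087 and 118026 CPM. Gcg-only medians were 79384, 87782 and 39862 CPM, so the members lay lower in set 2 and higher in set 3. The log2 ratio of the sums was -0.77, -0.34 and 0.73. Ppy reads exceeded Gcg reads, uncorrected for transcript length, in 13 of 81 members, and the median member had a Ppy count of 7.12% of its Gcg count, with a range from 0.648% to 1586%.

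Iapp overlapped widely between the classes. It reached 1000 CPM in 17 of 26, 26 of 50 and 2 of 5 members, and in 49 of 87, 96 and 12 of 27 Gcg-only cells. Median Iapp was 1929 and 1473 CPM in members and Gcg-only cells of Neurod1OE, 1110 and 1778 CPM in Ngn3KO, and 353 and 708 CPM in set 3. Log2 ratios of the sums were 0.53, 0.48 and -2.66, and the rank correlation of Ppy with Iapp over Gcg-high cells was -0.05, -0.15 and -0.23.

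Ghrelin (Ghrl), the epsilon cell hormone, was lower in the summed counts of the members. The sums were 259 against 620 CPM (log2 -1.26) in Neurod1OE, 605 against 1349 CPM (-1.15) in Ngn3KO and 44.7 against 1031 CPM (-4.50) in set 3. In set 2 a minority of high cells carried this difference, since the median cell had 21.8 and 27.5 CPM, 24.9 and 31.6 CPM, and 4.95 and 102.5 CPM. A Ghrl level of 1000 CPM was reached by 4 of 81 members (4.94%, 1.36 to 12.2) and 35 of 267 Gcg-only cells (13.1%, 9.30 to 17.8). In the Gm12338-positive Ngn3KO cells the log2 ratio was 0.24, with the sign turned. Insulin (Ins1 and Ins2 summed) reached the same level in 5 members (6.17%) and 10 Gcg-only cells (3.75%), and somatostatin (Sst) in 1 cell of each class. The log2 ratio of Ins2 in Ngn3KO, 2.79, went to 0.59 without its highest member, and that of Sst from 4.87 to -0.46, so both rested on 1 cell.

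Among genes lower in the members, Cdhr1, a cadherin-family gene known from photoreceptors, was called in all 3 groups with similar ratios. The median member had 0 CPM of Cdhr1 in each group, against Gcg-only medians of 37.3, 57.2 and 52.4 CPM. At least 10 CPM was found in 7 of 26 members against 48 of 87 Gcg-only cells in Neurod1OE, 17 of 50 against 73.03% of the Gcg-only cells in Ngn3KO, and 2 of 5 against 23 of 27 in set 3. The sums were 15.3 against 72.4 CPM (log2 -2.17), 19.4 against 83.5 CPM (-2.05) and 16.2 against 92.3 CPM (-2.44). Within the blocks the log2 ratio was -3.70 and -1.32 in Neurod1OE and -2.03 and -1.39 in Ngn3KO. Across the Ppy tiers the share of cells with 10 CPM of Cdhr1 was 72.7%, 76.8%, 62.4% and 63.6% below the Ppy limit and 34.5%, 40%, 28.6% and 15.4% above it.

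Cartpt, which encodes the CART neuropeptide, was lower in all 3 groups. The sums were 17.1 against 107.6 CPM (log2 -2.58), 19.1 against 252 CPM (-3.65) and 22.8 against 1077 CPM (-5.50). High Cartpt was a property of few Gcg-only cells, with 1, 7 and 7 cells at 1000 CPM or more and a highest value of 4107, 15032 and 23035 CPM. No member reached 1000 CPM, and the highest members had 206, 128.1 and 35.5 CPM. The medians of the classes lay closer, at 3.59 and 6.46, 1.10 and 9.95, and 13.01 and 98.5 CPM. With the Ppy limit at 500 CPM the Cartpt ratio in Neurod1OE of set 2 was -0.22, so the call rests on the limit.

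The arginine synthesis enzyme gene Ass1 was lower as well, at 18.01 against 47.001 CPM (log2 -1.34), 16.6 against 52.4 CPM (-1.60) and 2.94 against 31.01 CPM (-3.02). It reached 10 CPM in 4 of 26, 12 of 50 and 0 of 5 members, against 46 of 87 (52.9%), 82 (53.9%) and 15 of 27 Gcg-only cells. In the Gm12338-positive Ngn3KO cells the Ass1 ratio was -0.62. The other lower genes were Oas1c, Caly, Amacr, 9330159F19Rik, Glis1, Fam132a and Cmbl, of which Fam132a had a ratio of 0.77 in Gm12338-negative Ngn3KO cells. Glis1 had -0.06 and -0.09 in the negative Neurod1OE and Ngn3KO blocks, and Caly -0.15 and -0.20 in the Ngn3KO blocks. Igfbpl1, an IGF-binding-protein-like gene, was not called, with log2 ratios of -1.52, -1.28 and -0.46, but it was the single gene with a rank correlation with Ppy of -0.3 or below in all groups (-0.34, -0.33 and -0.31). In the blocks the Igfbpl1 correlation was -0.18, -0.46, -0.22 and -0.10, so the pooled Ngn3KO value was larger in size than either Ngn3KO block. It reached 10 CPM in 12 of 26, 20 of 50 and 5 of 5 members and in 77.01%, 75.7% and 88.9% of Gcg-only cells.

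Higher in the members was Ptpru, at 42.7 against 15.8 CPM (log2 1.38), 38.2 against 12.6 CPM (1.52) and 42.7 against 6.90 CPM (2.47). It reached 10 CPM in 14 of 26, 16 of 50 and 2 of 5 members and in 18 of 87, 25 (16.4%) and 6 of 27 Gcg-only cells. In the Gm12338-positive Ngn3KO cells the Ptpru ratio was 0.83. In the 4 genotype and block subsets of set 2, 8503 genes were measured and 4 were at least 2-fold higher in every one (0.047%), namely Ppy, Pyy, Creb3l1 and Spp2. The lower genes there were 5 (0.0588%), namely Cartpt, Cdhr1, Athl1, Mtmr12 and Xrcc3. Creb3l1, a membrane-bound transcription factor of secretory cells, had 82.7 against 9.35 CPM (log2 3.02) in Neurod1OE and 37.3 against 3.39 CPM (3.13) in Ngn3KO, and 3.17, 2.85, 2.78 and 2.44 in the blocks. It reached 10 CPM in 9 of 26 against 9 of 87 cells and in 14 of 50 members (28%) against 5 Gcg-only cells (3.29%). In set 3 it did so in 1 of 5 against 3 of 27 cells, with a log2 ratio of 0.56. The set 3 ratio had the opposite sign for Spp2 (-1.37), Athl1 (1.54) and Mtmr12 (1.51), and was -0.55 for Xrcc3.

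Of the 12 genes listed as PP cell markers, 7 were measured, and of the 6 besides Ppy, which the rule used, 1 was higher (Pyy) and 0 were lower. The median log2 ratio of these 6 was 0.49, 0.95 and 0.73, against 0.00, -0.01 and -0.08 over all genes, and in the blocks 0.68, 0.43, 0.70 and 0.34. Meis2, a homeobox factor, had log2 ratios of 0.43, 0.57 and 0.75, but it differed between the blocks, and within them the ratio was 0.37, 0.52, 0.16 and 0.23. Ngn3KO members and Gcg-only cells had 1286 and 1155 CPM of Meis2 in the positive block and 444 and 379 CPM in the negative block. Etv1, an ETS transcription factor that is also on the alpha cell list below, had 0.27, 0.51 and 0.46, and in the blocks 0.20, 0.34, 0.20 and 0.24. Neither passed 2-fold. Fxyd3 had 0.16, 1.33 and 2.48, and -0.42 in Gm12338-positive Neurod1OE cells. Tspan8 had 1.39, 2.81 and -2.56, and 0.21 and 0.15 in the negative blocks, while Carhsp1 had 0.56, -0.10 and 0.71. Above 0 in all groups were 4 of the 6, where 12.9% of all measured genes lay above 0 and 14.9% below 0 in all groups. At least 1.5-fold higher in all groups were 0.649% of all measured genes, and lower 0.649%.

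The 15 measured alpha cell genes besides Gcg gave 0 higher and 0 lower calls, where 0.066% and 0.121% of all measured genes were called. The list medians were -0.22, -0.20 and -0.38, and in the blocks -0.49, -0.10, -0.20 and 0.20. Transthyretin (Ttr), a carrier protein abundant in alpha cells, had log2 ratios of -0.06, -0.80 and -1.70. Ttr was higher in the negative than in the positive block, with 13959 and 2577 CPM in Ngn3KO members, and its ratio within the blocks was -0.54, 0.08, -0.34 and 0.09. The somatostatin receptor Sstr2 had -0.45, -1.27 and -3.80, and in the blocks -1.13, -0.15, -0.91 and -0.75. Tmem27 had -0.28, -0.58 and -0.73, and in the blocks -0.49, -0.13, -0.44 and -0.18. Irx2 had -0.30, -0.52 and 0.91, and in the blocks -1.16, 0.17, -0.82 and 0.37. Irx1 had -0.14, 0.03 and 0.62. Sstr2 and Tmem27 thus kept their sign in every group and block, and Ttr and Irx2 did not.

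**Figure D5:**
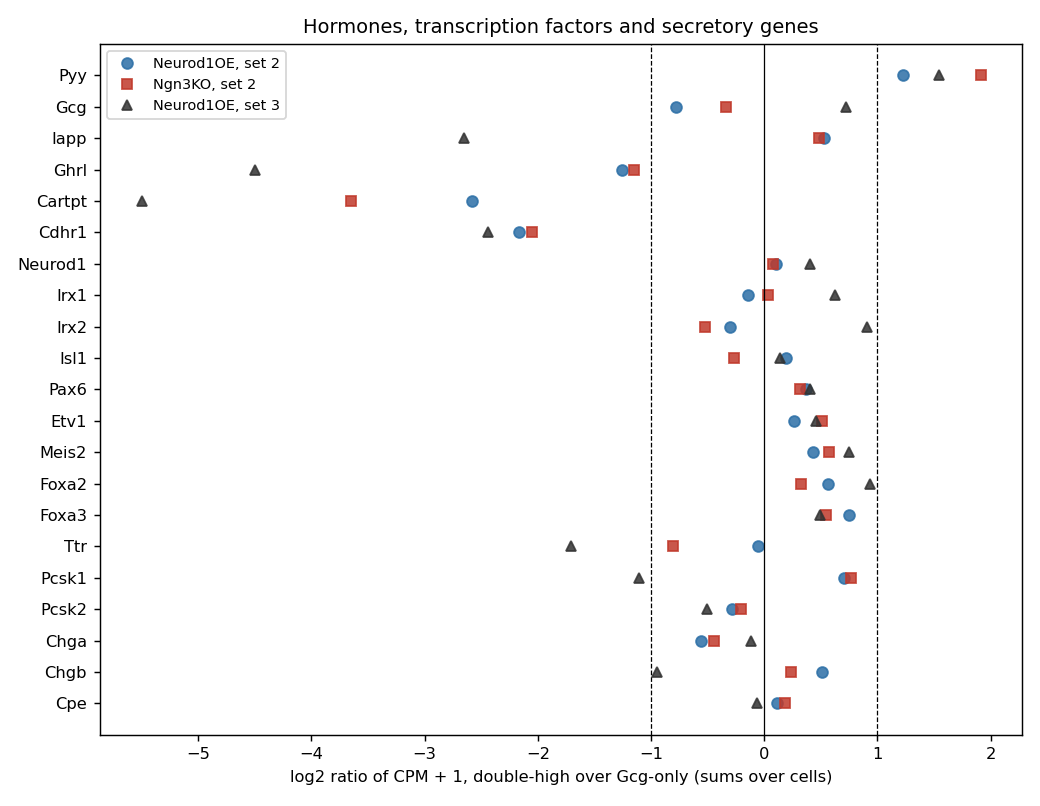
Log2 ratio of summed CPM (x axis, members over Gcg-only cells, 1 CPM added) of named genes in Neurod1OE set 2, Ngn3KO set 2 and Neurod1OE set 3, 1 point per group, with dashed lines at 2-fold. Pyy lies at 1.23, 1.91 and 1.55 and Cdhr1 at -2.17, -2.05 and -2.44.

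Of 52 listed islet transcription factors, 37 were measured, 0 were higher and 0 were lower. As 0.066% and 0.121% of all measured genes were called higher and lower, 0 calls in a list of this size say little. The list median was 0.07, 0.20 and 0.28. Above and below 0 in all groups were 12 and 3 of the 37, against 12.9% and 14.9% of all measured genes. Pax6, a pan-endocrine factor, had log2 ratios of 0.37, 0.32 and 0.40, and the forkhead factors Foxa2 and Foxa3 had 0.56, 0.32 and 0.94, and 0.74, 0.55 and 0.49. These 3 genes lay above 0 in each block too. Meis1 ran the other way, at -0.80, -0.76 and -0.84, but had 0.12 in Gm12338-negative Neurod1OE cells. Isl1 had 0.19, -0.27 and 0.14. Neurod1, whose counts do not separate transgene from native transcript, had medians of 370 against 279, 240 against 217 and 115.6 against 213 CPM. The log2 ratio of summed Neurod1 in the blocks was -0.32, 0.38, 0.05 and 0.16, so its sign differed between the Neurod1OE blocks.

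The 12 measured prohormone-processing genes and the 25 measured granule genes gave 0 calls in either direction. This says little, as 0.066% and 0.121% of all measured genes were called higher and lower. The same holds for the other lists of this paragraph. The convertase genes Pcsk1, which opens prohormones, and Pcsk2, the glucagon-releasing convertase, had log2 ratios of 0.71, 0.77 and -1.10, and -0.28, -0.20 and -0.50, and both kept their set 2 sign in each block. The granule genes Chga and Chgb had -0.56, -0.44 and -0.12, and 0.51, 0.24 and -0.95, the zinc transporter Slc30a8 had -0.53, -0.73 and -1.29, and Ptprn, a granule membrane protein, had -0.58, -0.79 and -1.79. Within the Ngn3KO blocks, positive and negative, these were 0.14 and -0.54 for Chga, 0.41 and -0.25 for Chgb, -0.98 and -0.21 for Slc30a8 and -0.63 and -0.03 for Ptprn. Of the nuclear respiratory chain genes, 19 were measured, 0 were called and 9 lay below 0 in all groups, against 14.9% of all measured genes. The imprinted list had 18 measured and 0 called genes, among them Ndn at -0.42, -0.68 and -0.51 and Meg3 at 0.18, 0.69 and 0.53. The Notch list had 10 measured and 0 called genes, with Jag1 at 0.72, 0.69 and 0.97 and Notch2 at 0.91, 0.36 and 2.103. In the Ngn3KO blocks, positive and negative, the ratio was -0.77 and 0.13 for Ndn, 0.52 and 0.00 for Meg3, 0.66 and -1.64 for Jag1 and 0.33 and 0.10 for Notch2.

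Markers of other cell types gave few calls, as did all measured genes (0.066% higher and 0.121% lower). Ghrl was the single call among the beta, delta and epsilon cell lists, and the duct and trunk (9 measured), mesenchyme (2), endothelium (1), immune (1), neural or Schwann (3) and hepatic (9) lists gave 0. Acinar cells make digestive enzymes, and of 20 acinar genes 6 were measured and 0 were called, with medians of -2.66, 2.23 and 1.76. The summed acinar level of the median cell was 126.9 CPM in members (range 7.90 to 4133) and 152.4 CPM in Gcg-only cells (0 to 15852) of Neurod1OE. It was 399.8 CPM (12.6 to 19134) and 171.9 CPM (0 to 3201) in Ngn3KO, and 2820 CPM (553 to 11819) and 302 CPM (0 to 8587) in set 3. The median member had 0 CPM for 16, 16 and 12 of the 20 genes. Cpa1, an acinar protease, had log2 ratios of -2.57, 2.17 and 3.96. The part of acinar RNA in the results was not tested. A cycling call (at least 3 of Mki67, Top2a, Cdk1 and Birc5 at 10 CPM) was met by 15 of 81 members (18.5%) and 39 of 267 Gcg-only cells (14.6%). It was met by 7 of 26 members in Neurod1OE (26.9%, 11.6 to 47.8), 8 of 50 in Ngn3KO (16%, 7.17 to 29.1) and 0 of 5 in set 3, against 10 of 87 (11.5%, 5.65 to 20.1), 27 (17.8%, 12.04 to 24.8) and 1 of 27 Gcg-only cells. The members thus lay above their comparison cells in Neurod1OE and below them in Ngn3KO, with intervals that overlap in both.

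The 5 members of set 3 spanned a wide range. The cell with the highest Ppy, 38997 CPM, had the highest Pyy, 49526 CPM, the lowest Gcg, 42304 CPM, and the fewest reads, 42644. The cell with the lowest Ppy, 2235 CPM, had the lowest Pyy, 13124 CPM, and the highest Gcg, 118026 CPM. Iapp was 3025 and 203.9 CPM in these cells and 2419, 353 and 109.3 CPM in the others. Cpa1 was 70.3 and 45.4 CPM in them and 6.35, 1322 and 110 CPM in the others, so 1 member held most of the Cpa1.

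Between the genotypes, the members of set 2 lay close in Ppy. The rule used Ppy and Gcg, so their values here only describe the members it chose. Summed Ppy was 5478 CPM in Ngn3KO and 5464 CPM in Neurod1OE (log2 0.00, Ngn3KO over Neurod1OE, and -0.23 and -0.42 in the Gm12338-positive and negative blocks), Pyy 28368 and 25177 CPM (0.17), Iapp 4432 and 4184 CPM (0.08) and Gcg 72748 and 44621 CPM (0.71, against 0.27 in Gcg-only cells). Of 10367 measured genes, 563 (5.43%) lay 2-fold or more above Neurod1OE in the Ngn3KO members and 1048 (10.1%) below, with a median log2 ratio of -0.10. The Gcg ratio was 0.94 in the positive and 0.65 in the negative block. Among islet factors, the log2 ratio was below 2-fold for Neurod1 at -0.21, Pax6 at -0.12, Etv1 at 0.18, Meis2 at 0.04 and Isl1 at -0.52.

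Lower in Ngn3KO members were the kinetochore genes Nuf2 (2.66 against 76.5 CPM, log2 -4.41) and Ndc80 (8.47 against 97.7 CPM, -3.38) and the mitotic kinase Aurkb (6.26 against 82.9 CPM, -3.53), with Kif20a at -3.21, Shcbp1 at -3.43 and Ckap2l at -3.47. Few cells gave them, since Aurkb reached 10 CPM in 7 of 26 Neurod1OE and 4 of 50 Ngn3KO members and Nuf2 in 7 and 3. The cycling call given above was met by 7 of 26 and 8 of 50 of these members, and its part in the difference was not tested. In Gcg-only cells the same genotype ratios were 0.93 for Nuf2, -0.37 for Ndc80, -0.19 for Aurkb and 1.05 for Shcbp1. Shcbp1 had -0.90 in the negative block of the members. The same ranking also held Naif1 at -3.94, Fndc5 at -3.85, Mxd3 at -3.74 and Fam64a at -3.56. Naif1 and Fndc5 came directly after Nuf2, ahead of the other genes named above. Higher in Ngn3KO members were Lonrf2 (57.04 against 0.826 CPM, log2 4.99, and -0.03 in Gcg-only cells), found at 10 CPM in 14 of 50 and 1 of 26 cells, Tceanc (76.3 against 17.2 CPM, 2.08, and 1.09 in Gcg-only cells) and the fetal gene Afp, alpha-fetoprotein (76.2 against 19.1 CPM, 1.95, and 2.61 in Gcg-only cells). All sexed Ngn3KO members were female, whereas Neurod1OE members were of both sexes, so genotype and sex cannot be told apart in the pooled values. In the Gm12338-negative block, where all 9 Ngn3KO and 15 Neurod1OE members were female, the log2 ratio was -3.59 for Nuf2, -2.19 for Ndc80, -4.50 for Aurkb, 3.13 for Lonrf2, 2.48 for Tceanc and 2.20 for Afp. These genes were picked among those with the pooled sign in both blocks, so the shared sign was fixed by the choice. The part of sex was not tested.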

How the data were processed

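The authors deposited unnormalized counts of reads for each gene in every cell, as sparse matrices. Per the submitters' processing notes, reads were trimmed with Trimmomatic 0.39, aligned with HISAT2 2.1.0 to mm10 and counted with featureCounts 2.0.0; strand setting, molecule barcodes and cell filters are not given in the sources used here. Totals per cell ran from 25769 to 2788066 reads (median 476838, at least 4114 genes), spike-ins left out, over 40824 genes. No cell was removed, no doublet caller was run, 0 cells had identical counts and 0 columns stayed unmapped. Counts were summed over cells of a class and group, scaled to CPM and compared as log2 ratios with a pseudocount of 1 CPM. The genes measured and called, the lists and the blocks follow the rules in the report. Hormones and islet factors were named whatever their values, and others by the smallest log2 ratio over groups. Genes of the genotype comparison were named by size among those with the pooled sign in both blocks. Single genes beyond this were named after their values were seen. The members and lists were chosen with earlier results of these data known. Intervals are exact (Clopper-Pearson or Poisson) and cover counting error only. The code was run on simulated counts without blocks, with planted changes larger than 2-fold in genes of higher counts. Calls near the 2-fold limit were not tested this way. Alternatives changed scaling (edgeR 4.0.16 TMM, DESeq2 1.42.0 size factors, used for scaling only), filters, limits, blocks and cells. Python 3.11.15 with scipy 1.17.1 and R 4.3.3 were used. Positions are from GENCODE M21 and promoters from RefSeq GRCm38.p6.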

Additional observations from a re-analysis of the deposited data

Results flagged for a closer look

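Outside the comparison, 9 cells reached the Ppy limit while their Gcg stayed below 1000 CPM, and all were Neurod1OE cells. The 3 of set 2 had Ppy at 5284, 24199 and 38552 CPM, Gcg at 232, 978 and 969 CPM and Pyy at 37330, 121420 and 141790 CPM, in the same order. Their Gcg lay close under the limit in 2 of these cells, and the members with the lowest Gcg had 1117 and 1132 CPM. The 6 of set 3 had Ppy from 3232 to 90586 CPM, Gcg from 30.9 to 720 CPM and Pyy from 13944 to 133280 CPM. No Ngn3KO cell was of this kind, and the difference between the genotypes was not tested.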

How the results depend on the processing

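No paired analysis was possible because the numbers in the titles only name cells and no result comes from a test. No animal is named, set 3 holds 5 members, and Gcg-high cells vary in depth, so a gene read in few cells has a sum that 1 cell can set. Shares are of the measured genes, higher and lower calls in that order, 0.066% and 0.121% as reported and 5.43% and 10.1% for the genotypes. Counts of calls stayed within 1.5 times under equal weight per cell, TMM, DESeq2 size factors, totals without 9 hormone and transthyretin genes, and without the deepest and shallowest cells. At least 1 count moved under each of the others, and the cause was not tested. A stable count did not always mean the same genes. Of the 6 higher and 11 lower genes, 3 and 7 were called again under equal weight per cell. The same numbers, 3 and 7, were kept without the deepest and shallowest cells, 6 and 9 under TMM, 5 and 8 under DESeq2 size factors, and 6 and 10 with the reduced totals. Without a filter on low values the shares were 0.130% and 0.553% (genotypes 8.51% and 10.6%), with more genes tested. A pseudocount of 5 CPM gave 0.0330% and 0.0550% (genotypes 3.40% higher). A Ppy limit of 500 CPM gave 0.0329% lower (genotypes 3.32% and 5.89%) and shares of members of 38.1% and 36.1% in Neurod1OE and Ngn3KO of set 2. A Ppy limit of 5000 CPM gave 0.508% and 1.15% (genotypes 17.96% and 20.95%) and shares of members of 7.08% and 7.92%. A Gcg limit of 10000 CPM gave 0.178% and 0.256%, comparison cells with Ppy below 100 CPM 0.334% higher, and leaving out cells with another hormone 0.156% and 0.0667%. Gm12338-positive cells gave 0.168% and 0.224% (genotypes 13.4% and 15.6%, share of Ngn3KO members 38.7%), and negative cells 0.2002% and 0.334% (genotypes 9.34% and 17.2%, share 9.38%). Without the highest cell of each class and gene the shares were 0.0367% and 0.428% (genotypes 6.81% lower), and in the set 2 groups alone, a choice made after the data were seen, 0.460% and 0.303%. Of 16 settings, Ppy and Cdhr1 were called in 16, Pyy and Cartpt in 15, Ptpru in 14 and Ass1 in 13. Oas1c was called in 11, Ghrl and Cmbl in 10, and Amacr, Lyrm7 and Mex3b in 8. Caly, 9330159F19Rik, Fam132a and Gm11131 were called in 7 and Glis1 in 5. Signs turned for 6 of the called genes. Lyrm7 in Neurod1OE of set 2 had -0.012 at the Ppy limit of 5000 CPM, -0.17 at the Gcg limit of 10000 CPM and -1.04 in Gm12338-negative cells, and -2.76 in set 3 without the highest cells. Mex3b had -0.52 in Gm12338-negative Ngn3KO cells and -2.18 in set 3 without the highest cells. Gm11131 had -1.56 in Neurod1OE of set 2 and -0.34 in set 3 at the Ppy limit of 5000 CPM, and in Neurod1OE of set 2 -0.98 in Gm12338-positive cells and -0.092 without the highest cells. Ghrl had 0.053 in Neurod1OE against cells with Ppy below 100 CPM and 0.24 in Gm12338-positive Ngn3KO cells. Fam132a had 0.061 in Neurod1OE at the Ppy limit of 5000 CPM, and in Ngn3KO 0.0043 at the Ppy limit of 500 CPM, 0.14 at the Gcg limit of 10000 CPM, 0.72 without cells of another hormone and 0.77 in Gm12338-negative cells. 9330159F19Rik had 2.68 in set 3 with equal weight per cell.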

Other observations

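A few further genes lay on the same side in all 3 groups near the 2-fold limit. The alcohol and retinol dehydrogenase gene Adh1 had log2 ratios, members over Gcg-only cells, of 0.84, 1.41 and 4.55 in Neurod1OE set 2, Ngn3KO set 2 and Neurod1OE set 3, and reached 10 CPM in 11 of 26, 26 of 50 and 4 of 5 members against 30 of 87, 35 and 3 of 27 Gcg-only cells. Dock9, an exchange factor for the GTPase Cdc42, had 1.09, 0.89 and 1.59, and Stox2 had 0.99, 1.01 and 0.88. The imprinted gene Nap1l5 had -0.60, -0.73 and -1.72. Within the Ngn3KO blocks of set 2, Gm12338-positive and negative, the ratios were 0.84 and 1.79 for Adh1, 0.60 and 0.28 for Dock9, 0.76 and 0.77 for Stox2, and -0.79 and -0.20 for Nap1l5.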
